A study of Mus musculus with 9 samples.

Results

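The 10 genes described here encode ligands and receptors of the VEGF and angiopoietin systems, the main growth factor pathways of blood and lymphatic vessels. They were taken by name from the 55487 genes of each deposited table, and all 10 were found and passed the filter on low counts that left 17747 genes for testing. The ligands are Vegfa, Vegfc, Angpt1 and Angpt2, and the receptors are Kdr, Flt1, Flt4, Tek, Tie1 and the co-receptor Nrp1.

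RNA from whole mouse ovary was sequenced at postnatal days 8, 50 and 65, with 3 libraries at each age. Every library came from the C57BL/6 strain carrying PIK3CA*, a transgene of the catalytic PI3-kinase subunit knocked in to act in the oocyte alone, and the labels name neither the promoter that drives it nor the change behind the asterisk. The series' design text calls the material tumor, whereas the sample labels call it ovary at each age. No other genotype was analysed here, so effects of the transgene, of ovary growth and of tumor growth cannot be told apart. The labels do not say whether the libraries of an age are separate animals, and the spread behind each p-value may therefore be technical.

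VEGF-A is a secreted growth factor that binds Kdr (VEGFR2), the receptor that carries most of its growth signal in endothelial cells, and Flt1 (VEGFR1), a tightly binding receptor with a weak kinase that also exists as a soluble decoy. Nrp1 is a co-receptor that holds VEGF-A on Kdr, and VEGF-C is the principal ligand of Flt4 (VEGFR3), the receptor of lymphatic endothelium. Angiopoietin 1 activates the receptor Tek (Tie2) and steadies vessels, angiopoietin 2 competes with it and in many settings loosens them, and Tie1 is a related receptor that pairs with Tek. In the ovary the vessels of a follicle lie in its theca layer, the granulosa layer has none until ovulation, and the corpus luteum becomes densely vascular.

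Sequence is shown for both receptor pairs that the results set side by side, Tek with Tie1 and Kdr with Flt1. The ratio within each pair differed at day 65 from both earlier ages. Each line is the RefSeq promoter on GRCm38.p6, with 250 bases before the start and 50 from it, written on the strand of the gene. Tek lies at chr4:94739039-94739338 on the plus strand, and Tie1 at chr4:118489800-118490099 on the minus strand. Kdr lies at chr5:75978406-75978705 and Flt1 at chr5:147725962-147726261, both on the minus strand. Capitals mark GGAAG and, on the other strand, CTTCC, a form of the letters read by ETS factors, the family that includes the endothelial regulator Erg. Other forms of the ETS letters were neither marked nor counted, so a window without capitals may still hold them.
Tek: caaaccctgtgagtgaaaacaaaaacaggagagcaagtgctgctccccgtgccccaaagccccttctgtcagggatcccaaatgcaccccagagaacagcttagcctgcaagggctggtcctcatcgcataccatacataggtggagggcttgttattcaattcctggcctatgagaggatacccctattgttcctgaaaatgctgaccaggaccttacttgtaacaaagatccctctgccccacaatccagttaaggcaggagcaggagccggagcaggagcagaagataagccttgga
Tie1: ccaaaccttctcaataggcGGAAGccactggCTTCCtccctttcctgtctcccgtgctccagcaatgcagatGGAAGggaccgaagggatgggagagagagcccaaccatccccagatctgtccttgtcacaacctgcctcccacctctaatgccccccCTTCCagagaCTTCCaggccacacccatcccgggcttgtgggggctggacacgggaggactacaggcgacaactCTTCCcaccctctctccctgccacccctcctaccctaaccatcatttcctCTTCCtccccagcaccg
Kdr: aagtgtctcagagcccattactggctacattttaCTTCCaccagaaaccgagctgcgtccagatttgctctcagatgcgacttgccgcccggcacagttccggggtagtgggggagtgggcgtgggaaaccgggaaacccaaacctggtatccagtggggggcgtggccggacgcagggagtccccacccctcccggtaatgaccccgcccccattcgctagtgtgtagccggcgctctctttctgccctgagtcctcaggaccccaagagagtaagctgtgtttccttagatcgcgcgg
Flt1: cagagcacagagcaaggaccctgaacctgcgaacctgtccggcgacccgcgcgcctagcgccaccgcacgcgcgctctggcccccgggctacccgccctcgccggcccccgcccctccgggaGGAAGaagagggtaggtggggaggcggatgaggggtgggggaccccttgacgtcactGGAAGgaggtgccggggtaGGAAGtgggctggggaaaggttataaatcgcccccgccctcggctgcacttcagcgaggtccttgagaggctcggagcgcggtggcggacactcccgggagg
These letters occurred 0 times in the Tek promoter, 7 times in that of Tie1, 1 time in that of Kdr and 3 times in that of Flt1, and 71.4% of the 32851 promoters of the same length hold at least 1 match. The GC box GGGCGG, searched on both strands and held by 35.7% of promoters, occurred 2 times in Kdr, 3 times in Flt1 and in neither Tie receptor. Flt1 held 1 TATA box (TATAAA, 13.6% of promoters) and Tek 1 GATA match (AGATAA, 11.2%). The hypoxia response core ACGTG (19.6%) and the forkhead letters TGTTTAC (3.65%) were in none of these windows. No match overlapped a match of another motif, and the promoters held 52% (Tek), 60.3% (Tie1), 60.7% (Kdr) and 70.7% (Flt1) G and C. The table held a promoter for 8 of the 10 genes, the other two being Angpt1 and Angpt2.

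The libraries held 14116908 to 18868831 expected counts, the reads per gene that RSEM estimates, and the genes described here had between 37 (Tek) and 9063 (Angpt2) in a library. Replicate 1 of day 8 stood apart from the other day 8 libraries, with 11.8% of its counts on ribosomal protein genes against 4.59% and 6.07%, close to the 10.3% to 13.3% of the day 65 libraries and above the 3.19% to 3.74% at day 50. Mitochondrial genes took 2.03% to 4.53%, 3.02% to 3.29% and 4.59% to 5.13% at days 8, 50 and 65, and the part of these shares in the results was not tested. Pik3ca averaged 75.9 ± 17.4, 125 ± 10.8 and 72.9 ± 7.44 CPM (counts scaled to the library total after TMM normalization; SD, n = 3) at days 8, 50 and 65, and the sources do not say whether reads of the transgene fall in this row. The tissue label was checked on its markers: Foxl2, a granulosa factor, had 122 to 529 CPM and Gdf9, an oocyte factor, 23.9 to 413 CPM, and none of the 20 endothelial or 8 lymphatic markers was at 0 in any library. By edgeR, Foxl2 and Gdf9 were the only genes of their marker lists to rise at day 65 against day 50. In that comparison 6 of 11 granulosa and 4 of 10 oocyte markers fell. Gdf9 does not stand for its list. In replicate 1 of day 65 it had 518 counts, while the next oocyte marker, Ooep, had 44 and Zp1 had 1. In bulk tissue, fewer cells of a type and less RNA per cell cannot be told apart.

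**Figure D1:**
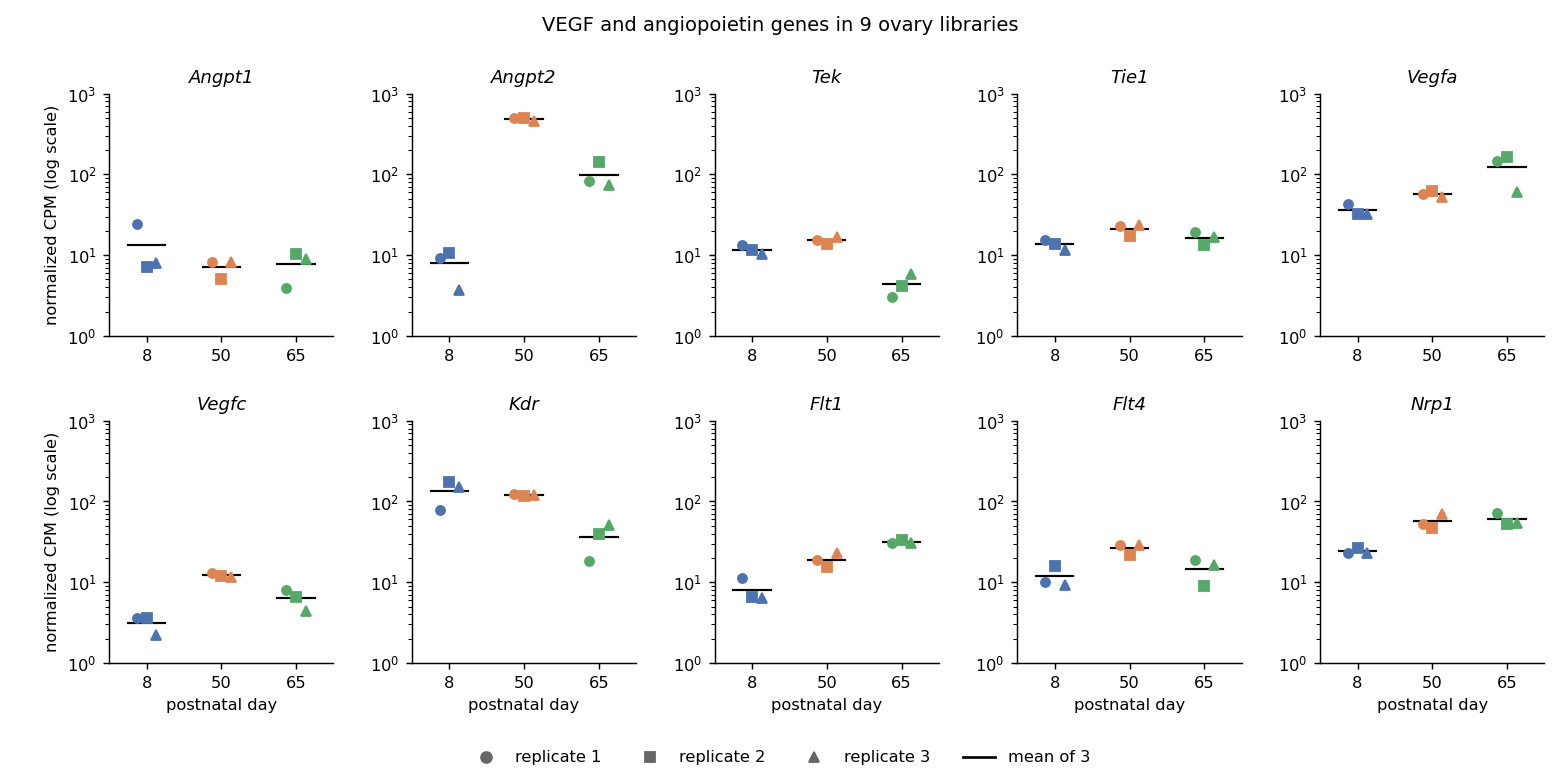
Normalized CPM on a log scale at postnatal days 8, 50 and 65 for each of the 10 genes, with 1 point for each library, shaped by replicate number, and a line at the mean of 3. Angpt2 was highest in the 3 day 50 libraries, at 459.7 to 505 CPM, Tek and Kdr were lowest in the 3 day 65 libraries, and Flt1 was highest there.

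At day 50 against day 8, Angpt2, Vegfc, Flt1, Flt4, Nrp1 and Tie1 were higher and none of the 10 genes was lower. Compared with day 50, day 65 was higher in Vegfa and Flt1 and lower in Angpt2, Tek, Kdr, Vegfc and Flt4. Set against day 8, day 65 was higher in Angpt2, Flt1, Vegfa, Nrp1 and Vegfc and lower in Kdr and Tek. Angpt1 passed the test in none of the 3 comparisons. These calls rest on edgeR's quasi-likelihood test with Benjamini-Hochberg adjustment over all 17747 genes, at an adjusted p under 0.05.

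The 6 genes called at day 50 against day 8 stand beside 40.8% of all tested genes called in that comparison, 19.5% higher and 21.4% lower. In the comparison of day 65 with day 50, 7 were called, 2 higher and 5 lower, beside 55.9% of all genes (27.5% higher, 28.4% lower). For day 65 against day 8 the 7 calls, 5 higher and 2 lower, stand beside 62.3% of all genes (29.7% higher, 32.6% lower). The median log2 fold change over the 10 genes was 0.93, -0.61 and 0.66 in the 3 comparisons, beside -0.04, -0.06 and -0.05 over all tested genes. Each pair of comparisons shares the 3 libraries of an age, so the columns of fold changes are not independent of each other.

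**Figure D2:**
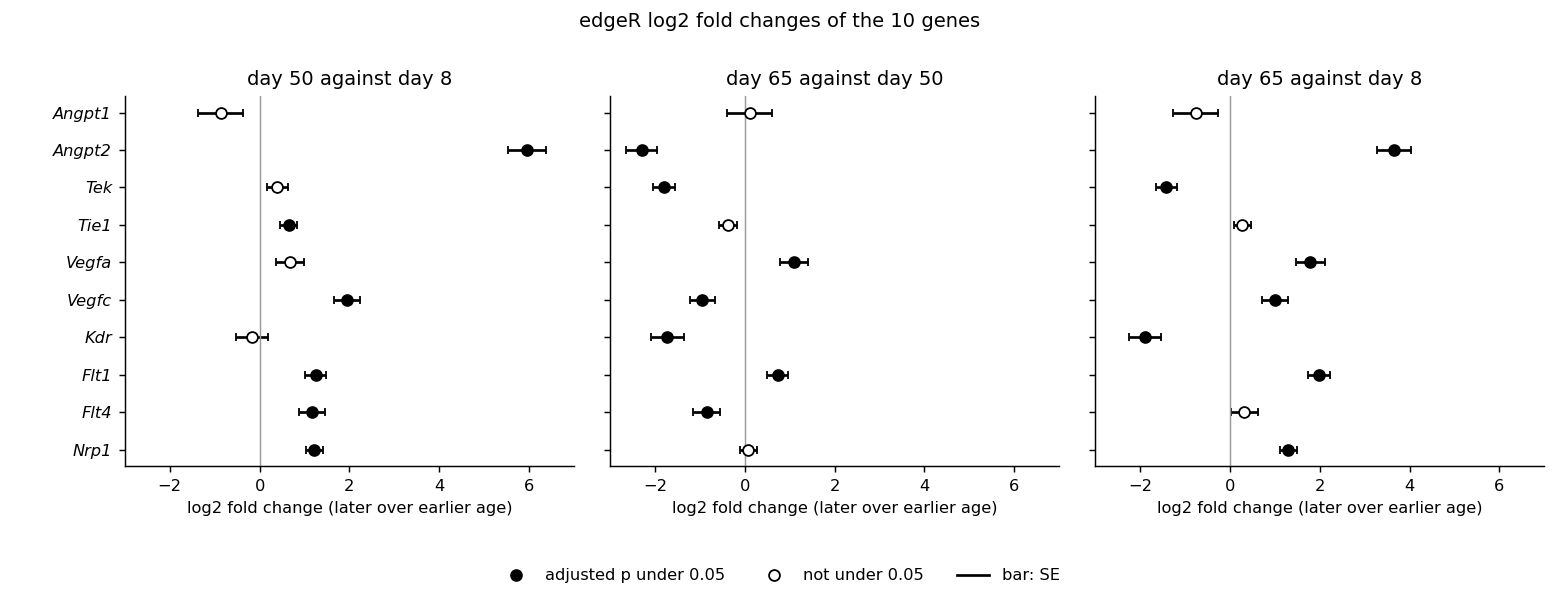
The log2 fold change of the later over the earlier age for each gene in the 3 comparisons, from edgeR, with bars of 1 SE, filled where the adjusted p was under 0.05. Angpt2 stood farthest from 0 in each panel, at 5.95, -2.30 and 3.65, and Tek and Kdr were below 0 by more than 1 in both day 65 panels.

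Angpt2, on chromosome 8 (bases 18690263 to 18741562, minus strand, GRCm38), showed the largest change of the 10 genes in each comparison. It had 9.34, 10.7 and 3.71 CPM in the day 8 libraries, 498, 505 and 459.7 CPM at day 50 and 82.4, 142 and 73.1 CPM at day 65. The 3 ages did not overlap, with day 50 on top, day 65 in between and day 8 at the bottom. Angpt2 was 61.9-fold higher at day 50 than at day 8 (log2 fold change 5.95, SE 0.423 by edgeR, adjusted p = 6.65e-06). At day 65 it fell by 2.30 on the log2 scale from day 50 (SE 0.353 by edgeR, adjusted p = 0.000513), being 4.91-fold higher at day 50, and it remained 12.6-fold above day 8 (3.65, SE 0.385 by edgeR, adjusted p = 3.29e-05). With a trend in gene length and GC content removed the excess over day 8 was 4.24, and on TPM, a level scaled by gene length and library total, the day 65 against day 50 value was -3.13. By TPM Angpt2 stood above 28.9% of the tested genes at day 8, 96.9% at day 50 and 79.0% at day 65.

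Angpt1, the activating ligand (chromosome 15, bases 42424727 to 42676977, minus strand), had 24.2, 7.22 and 8.10 CPM at day 8, 8.29, 5.02 and 8.20 CPM at day 50 and 3.90, 10.3 and 8.85 CPM at day 65. Replicate 1 of day 8 was higher than all other libraries, and the other 8 overlapped across the ages. The log2 fold change was -0.87 (SE 0.497 by edgeR, adjusted p = 0.190) at day 50 against day 8 and -0.76 (SE 0.498, adjusted p = 0.208) at day 65 against day 8. Without replicate 1 of day 8 the folds were 0.937 (adjusted p = 0.872) and 1.01 (adjusted p = 0.981). The call at day 65 against day 50 was also missed (0.11, SE 0.50, adjusted p = 0.866). On TPM the day 65 against day 8 value was -1.28 and passed the test (limma adjusted p = 0.0274), where the median of all genes was -0.66. Exons of Angpt1 share 14.2% of their bases with the antisense gene Gm17473, and the sources do not say whether the counting used the strand.

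Tek, the receptor of both angiopoietins (chromosome 4, bases 94739289 to 94874976, plus strand), had 13.3, 11.5 and 10.3 CPM at day 8, 15.6, 13.6 and 16.9 CPM at day 50 and 3.07, 4.19 and 5.81 CPM at day 65. The day 65 libraries lay below every library of both earlier ages. Tek fell by 1.81 on the log2 scale at day 65 against day 50 (SE 0.245 by edgeR, adjusted p = 0.000230) and by 1.41 against day 8 (SE 0.244, adjusted p = 0.000601). With the length and GC trend removed these values were -1.09 (adjusted p = 0.00148) and -0.64 (adjusted p = 0.0199), and on TPM -2.60 and -2.02. The difference of day 50 from day 8 was 0.39 (SE 0.232, adjusted p = 0.20), with no overlap between those libraries.

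Tie1, the partner of Tek (chromosome 4, bases 118471191 to 118490061, minus strand), had 15.5, 13.7 and 11.6 CPM at day 8, 23.1, 17.5 and 23.3 CPM at day 50 and 19.4, 13.4 and 16.7 CPM at day 65. Day 50 lay above day 8 in every library, and day 65 overlapped both. The log2 fold change was 0.65 at day 50 against day 8 (SE 0.194 by edgeR, adjusted p = 0.0220). That call was lost without replicate 3 of day 8 (adjusted p = 0.0718), without replicate 1 of day 50 (0.0642) and without replicate 3 of day 50 (0.0633). It was also lost with the length and GC trend removed (0.46, adjusted p = 0.0878) and on TPM (0.80, limma adjusted p = 0.0533). At day 65 it was -0.37 against day 50 (SE 0.193, adjusted p = 0.126) and 0.28 against day 8 (SE 0.195, adjusted p = 0.237). Scaling by library size alone brought the first of these under the threshold (-0.64, adjusted p = 0.0136), as did TPM (-1.18, limma adjusted p = 0.00358). The second passed with the replicate block and the trend removed (0.46, adjusted p = 0.0337).

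Vegfa, the ligand of Kdr and Flt1 (chromosome 17, bases 46016993 to 46032369, minus strand), had 43.1, 32.4 and 32.1 CPM at day 8, 56.8, 62.9 and 53.1 CPM at day 50 and 145, 166 and 60.1 CPM at day 65. At day 65 replicates 1 and 2 were far above day 50, whereas replicate 3 lay within its range, and every day 65 library exceeded day 8. Vegfa was 3.46-fold higher at day 65 than at day 8 (log2 fold change 1.79, SE 0.318 by edgeR, adjusted p = 0.000791). The comparison with day 50 gave 1.10 (SE 0.311, adjusted p = 0.0128), and without replicate 2 of day 65 it was 0.83 and lost the call (adjusted p = 0.0525). On TPM it was 0.00 (limma adjusted p = 0.996), where the median of all genes was -0.79, and the day 65 against day 8 value on TPM was 0.99 (limma adjusted p = 0.0181).

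The excess of Vegfa at day 50 over day 8 missed the threshold (0.69, SE 0.312, adjusted p = 0.105). The spread of the day 65 libraries enters that fit, since all 9 libraries share an estimate. With the libraries of days 8 and 50 alone the adjusted p was 0.00763, and without replicate 3 of day 65 it was 0.00644. On TPM the value was 0.98 (limma adjusted p = 0.0356). The day 8 and day 50 libraries did not overlap.

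Vegfc, the lymphatic ligand (chromosome 8, bases 54077606 to 54187096, plus strand), had 3.63, 3.61 and 2.25 CPM at day 8, 13, 12 and 11.5 CPM at day 50 and 8.04, 6.61 and 4.37 CPM at day 65. The ages did not overlap, with the order day 50, day 65 and day 8 from high to low. Vegfc was 3.85-fold higher at day 50 than at day 8 (1.94, SE 0.285 by edgeR, adjusted p = 0.000427). It fell by 0.94 on the log2 scale at day 65 against day 50 (SE 0.273, adjusted p = 0.0138) and was 2.00-fold above day 8 there (1.00, SE 0.285, adjusted p = 0.0109). With counts offset by effective length, the mean length of a gene's transcripts weighted by their estimated abundance, the day 65 against day 8 value was 0.64 (adjusted p = 0.0558), and on TPM it was 0.03 (limma adjusted p = 0.940). The day 65 against day 50 value on TPM was -1.73.

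Kdr, the main VEGF-A receptor (chromosome 5, bases 75932827 to 75978458, minus strand), had 78.2, 175 and 150.0 CPM at day 8, 123, 116 and 119.9 CPM at day 50 and 18.5, 39.4 and 50.5 CPM at day 65. All day 65 libraries were below all earlier ones, and replicate 1 of day 8, the library that stood apart, was the lowest of the earlier 6. Kdr fell by 1.72 on the log2 scale at day 65 against day 50 (SE 0.361 by edgeR, adjusted p = 0.00276) and by 1.89 against day 8 (SE 0.362, adjusted p = 0.00125). With the length and GC trend removed the values were -0.92 (adjusted p = 0.0249) and -0.99 (adjusted p = 0.0133), and on TPM -2.64 and -2.56. Days 50 and 8 differed by -0.17 (SE 0.348, adjusted p = 0.732), within the spread of day 8.

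Flt1, the decoy-like receptor of VEGF-A (chromosome 5, bases 147561604 to 147726011, minus strand), had 11.2, 6.63 and 6.30 CPM at day 8, 18.6, 15.3 and 23.2 CPM at day 50 and 30.7, 33.4 and 30.9 CPM at day 65. Its 3 ages did not overlap and stood in order of age. Flt1 was 2.38-fold higher at day 50 than at day 8 (1.25, SE 0.238 by edgeR, adjusted p = 0.00202) and 3.96-fold higher at day 65 than at day 8 (1.98, SE 0.240, adjusted p = 6.18e-05). The 1.66-fold excess of day 65 over day 50 (0.73, SE 0.229, adjusted p = 0.0194) lost its call without replicate 1 of day 50 (adjusted p = 0.0593), replicate 2 of day 50 (0.0812) or replicate 2 of day 65 (0.0518). It was also lost with scaling by library size alone (0.48, adjusted p = 0.0758) and on TPM (0.07, limma adjusted p = 0.860). With the length and GC trend removed it was 1.57 (adjusted p = 0.000416), and the excess of day 65 over day 8 was 2.84.

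Flt4, the receptor of VEGF-C (chromosome 11, bases 49609263 to 49652739, plus strand), had 10.2, 16.1 and 9.11 CPM at day 8, 29.1, 21.8 and 28.6 CPM at day 50 and 18.9, 8.90 and 16.4 CPM at day 65. The day 50 libraries were above all others, and those of days 8 and 65 overlapped. Flt4 was 2.25-fold higher at day 50 than at day 8 (1.17, SE 0.296 by edgeR, adjusted p = 0.00994). At day 65 it fell by 0.85 on the log2 scale against day 50 (SE 0.294, adjusted p = 0.0308), and leaving out replicate 1 of day 50 (adjusted p = 0.0923), replicate 3 of day 50 (0.0863) or replicate 2 of day 65 (0.0826) ended the call. Removing the trend in length and GC content gave -0.25 (adjusted p = 0.411), and TPM gave -1.68. Day 65 differed from day 8 by 0.32 (SE 0.297, adjusted p = 0.370), or by 0.81 with the trend removed, which passed the test (adjusted p = 0.0142).

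Nrp1, the co-receptor (chromosome 8, bases 128358604 to 128503363, plus strand), had 23.3, 26.8 and 22.7 CPM at day 8, 52.1, 46.9 and 70.5 CPM at day 50 and 72.8, 53.3 and 53.6 CPM at day 65. Both later ages were above day 8 in every library and overlapped each other. Nrp1 was 2.33-fold higher at day 50 (1.22, SE 0.187 by edgeR, adjusted p = 0.000565) and 2.47-fold higher at day 65 (1.30, SE 0.187, adjusted p = 0.000185) than at day 8. The difference of day 65 from day 50 was 0.08 (SE 0.183, adjusted p = 0.719). It passed the test with the length and GC trend removed (0.78, adjusted p = 0.00838) and, with the other sign, on TPM (-0.73, limma adjusted p = 0.0436), where the median of all genes was -0.79. Removing the trend also moved the excess of day 65 over day 8 to 2.10. On TPM the excess of day 65 over day 8 was 0.63 and missed the threshold (limma adjusted p = 0.0720). Its exons share 0.818% of their bases with Mir1903.

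Ordered by TPM, the gene on top differed at each age. At day 8 Kdr led with 39.6 ± 21.6 TPM, followed by Vegfa at 23.9 ± 1.30 TPM and Nrp1 at 11.3 ± 3.43 TPM (SD, n = 3), and Kdr overlapped Vegfa while Nrp1 overlapped neither Vegfa nor Tie1. The other 7 lay between 5.42 (Tie1) and 1.86 TPM (Flt1), with neighbours overlapping from Tie1 through Angpt1, Tek, Angpt2 and Flt4 to Vegfc. Flt1 was lowest, and its libraries did not overlap those of Vegfc.

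At day 50 Angpt2 led with 258 ± 15.8 TPM, above Vegfa at 47.4 ± 1.67, Kdr at 36.4 ± 1.77 and Nrp1 at 28.7 ± 6.97 TPM. The libraries of Angpt2, of Vegfa and of Kdr did not overlap, whereas those of Kdr and Nrp1 did. Below Nrp1 and without overlap, Vegfc, Tie1, Flt4, Tek and Flt1 followed between 9.90 and 5.15 TPM, each overlapping its neighbour, and Angpt1 was lowest at 3.06 ± 0.849 TPM, apart from Flt1. Angpt2 made up 62.6% ± 2.73 of the TPM of the 10 genes together at day 50, beside 3.76% ± 1.67 at day 8 and 24.5% ± 4.6 at day 65.

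At day 65 Vegfa (52.4 ± 27.6 TPM) and Angpt2 (31.6 ± 15.3 TPM) led and overlapped. Nrp1 followed at 17.0 ± 0.729 TPM and Kdr at 6.51 ± 3.46 TPM, each apart from its upper neighbour. Flt1 (5.38), Tie1 (4.12), Vegfc (2.91), Flt4 (2.37), Angpt1 (1.93) and Tek (1.01 ± 0.420 TPM) came after. Of these last neighbours Tie1 and Vegfc alone did not overlap. Kdr was thus the top gene at day 8 and below Vegfa, Angpt2 and Nrp1 at day 65, where Tek came last.

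**Figure D3:**
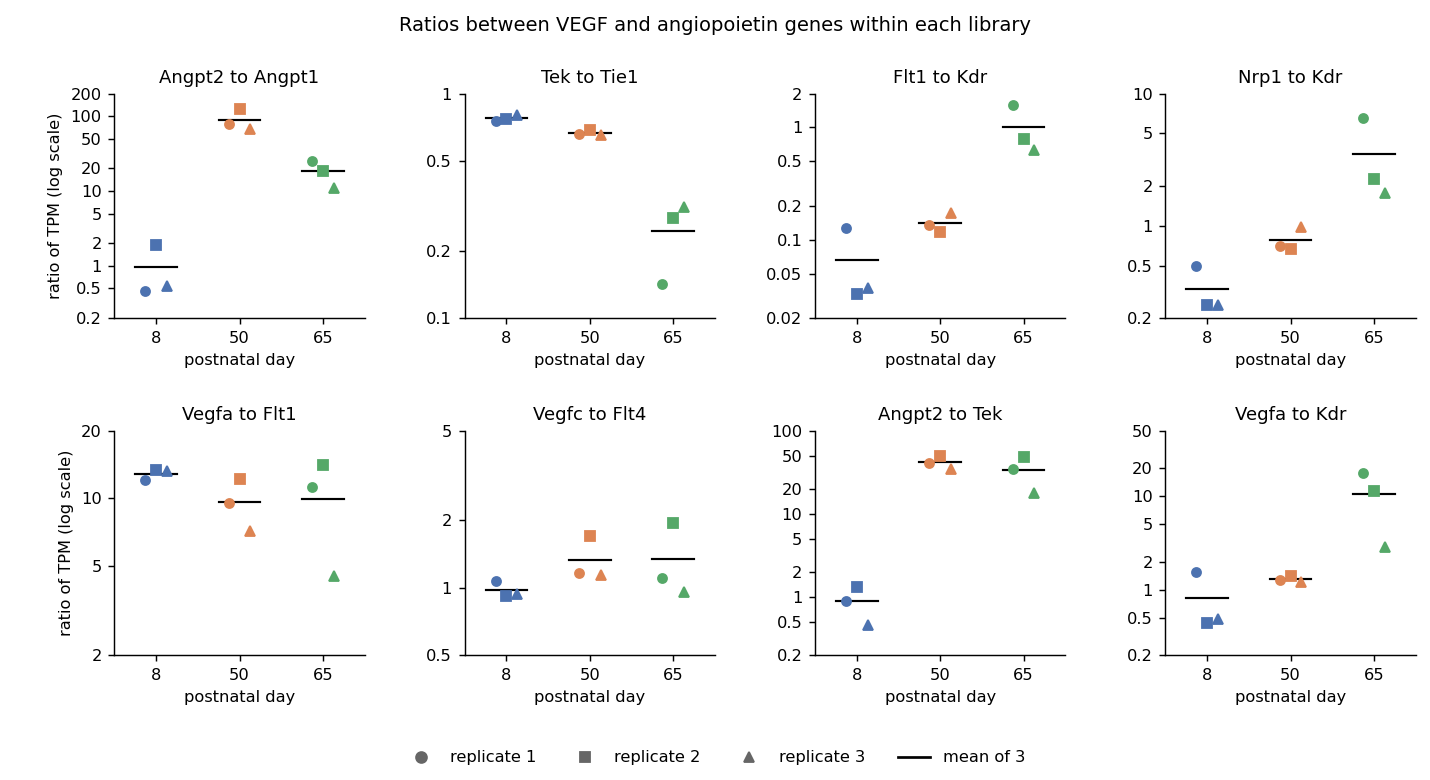
Ratio of 2 genes' TPM within each library, on a log scale, at postnatal days 8, 50 and 65, with 1 point for each library and a line at the arithmetic mean of 3. Flt1 to Kdr and Nrp1 to Kdr were highest in the 3 day 65 libraries, Tek to Tie1 was lowest there, and Angpt2 to Tek overlapped between days 50 and 65.

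Ratios within a library cancel the scaling between libraries, and 8 were computed for ligand and receptor pairs named by their known roles. They do not cancel a trend in gene length and GC content, which was not removed from them. Tek to Tie1 was 0.752, 0.770 and 0.806 at day 8, 0.661, 0.690 and 0.654 at day 50 and 0.141, 0.281 and 0.312 at day 65. The 3 ages did not overlap, and most of the distance lay between days 50 and 65 (-1.53 on the log2 scale). Flt1 to Kdr was 0.128, 0.0332 and 0.0373 at day 8, 0.135, 0.116 and 0.171 at day 50 and 1.58, 0.796 and 0.635 at day 65. The decoy-like receptor was therefore below Kdr in all 6 earlier libraries and, by TPM, above it in replicate 1 of day 65. The ratio was 6.67-fold higher at day 65 than at day 50 and 17.2-fold higher than at day 8 (26.4-fold without replicate 1 of day 8).

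Angpt2 to Angpt1, the balance of the competing ligands, was 0.465, 1.92 and 0.533 at day 8, 77.5, 124 and 67.8 at day 50 and 25.4, 18.4 and 10.9 at day 65. The ages did not overlap. The ratio was 111-fold higher at day 50 than at day 8 (174-fold without replicate 2 of day 8) and, at day 65, lower than at day 50 by 2.33 on the log2 scale. Angpt2 to Tek was 40.3, 49.0 and 34.8 at day 50 and 34.5, 48.4 and 17.8 at day 65, and these overlapped (exact permutation p = 0.4, two-sided, 3 against 3).

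Nrp1 to Kdr was 6.54, 2.24 and 1.77 at day 65, against 0.703, 0.674 and 0.977 at day 50, a 3.82-fold difference. Vegfa to Kdr was 17.8, 11.2 and 2.85 at day 65, against 1.28, 1.42 and 1.22 at day 50, a 6.35-fold difference (10.8-fold without replicate 3 of day 65). Neither ratio overlapped between these ages. Vegfa to Flt1 (11.2, 14.1 and 4.48 at day 65, against 9.51, 12.2 and 7.11 at day 50) and Vegfc to Flt4 (1.11, 1.94 and 0.959, against 1.16, 1.69 and 1.14) did overlap.

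Over the 24 tests of ratios, every pair of ages without overlap had an exact permutation p of 0.1, the smallest that 3 against 3 allows, and a Benjamini-Hochberg adjusted value of 0.15. None can reach 0.05 in this design. Ratios without overlap numbered 5 of 8 at day 50 against day 8 (8 without replicate 1 of day 8), 5 at day 65 against day 50 and 6 at day 65 against day 8, beside 57.7%, 68% and 65.7% of all tested genes whose CPM did not overlap. Those shares are for the CPM of single genes, an unlike measure, and no such share was computed for ratios.

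To set these genes beside the amount of endothelial RNA, the mean log2 CPM of 20 endothelial markers was subtracted in each library. The summed level of those markers ranged from 375 to 531 CPM at day 8, 430.4 to 552 CPM at day 50 and 485 to 516 CPM at day 65. Cd34 alone held 169, 73.4 and 96.7 CPM of the sum at day 8, and by edgeR it fell at both later ages against day 8. Of the 20 markers, 7 rose and 6 fell at day 65 against day 8. Overlapping sums therefore need not mean an equal amount of endothelial RNA. Relative to the marker mean Tek stood at -0.22, 0.03 and -0.15 at day 8, -0.24, -0.02 and -0.05 at day 50 and -2.09, -1.84 and -1.32 at day 65. Tek lay within 0.24 of the markers in every library of the first 2 ages and below them in every day 65 library. With Pecam1 and Cdh5 as the only markers, Tek at day 50 was lower than at day 8 by 0.48 on the log2 scale. The difference of day 65 from day 50 was -1.64 on the log2 scale (exact permutation p = 0.1, n = 3 each).

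Kdr relative to the markers was 2.33, 3.94 and 3.70 at day 8, 2.73, 3.06 and 2.77 at day 50 and 0.46, 1.36 and 1.78 at day 65. Flt1 was -0.46, -0.75 and -0.85 at day 8, 0.01, 0.15 and 0.40 at day 50 and 1.18, 1.12 and 1.07 at day 65. Kdr was lowest and Flt1 highest in the day 65 libraries, without overlap. The differences of day 65 from day 50 were -1.65 for Kdr and 0.94 for Flt1 (exact permutation p = 0.1 each).

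Angpt2 relative to the markers averaged -0.80 ± 0.758 at day 8, 4.88 ± 0.265 at day 50 and 2.71 ± 0.456 at day 65 (log2 CPM minus marker mean, SD, n = 3), and the ages did not overlap. Levels without overlap numbered 8, 6 and 6 of the 10 genes in the 3 comparisons, beside 47.7%, 59.3% and 60.7% of all tested genes on the same measure. Each had an exact permutation p of 0.1, or 0.15 adjusted over the 30 tests. With Pecam1 and Cdh5 as the only markers the numbers were 6, 6 and 7.

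**Figure D4:**
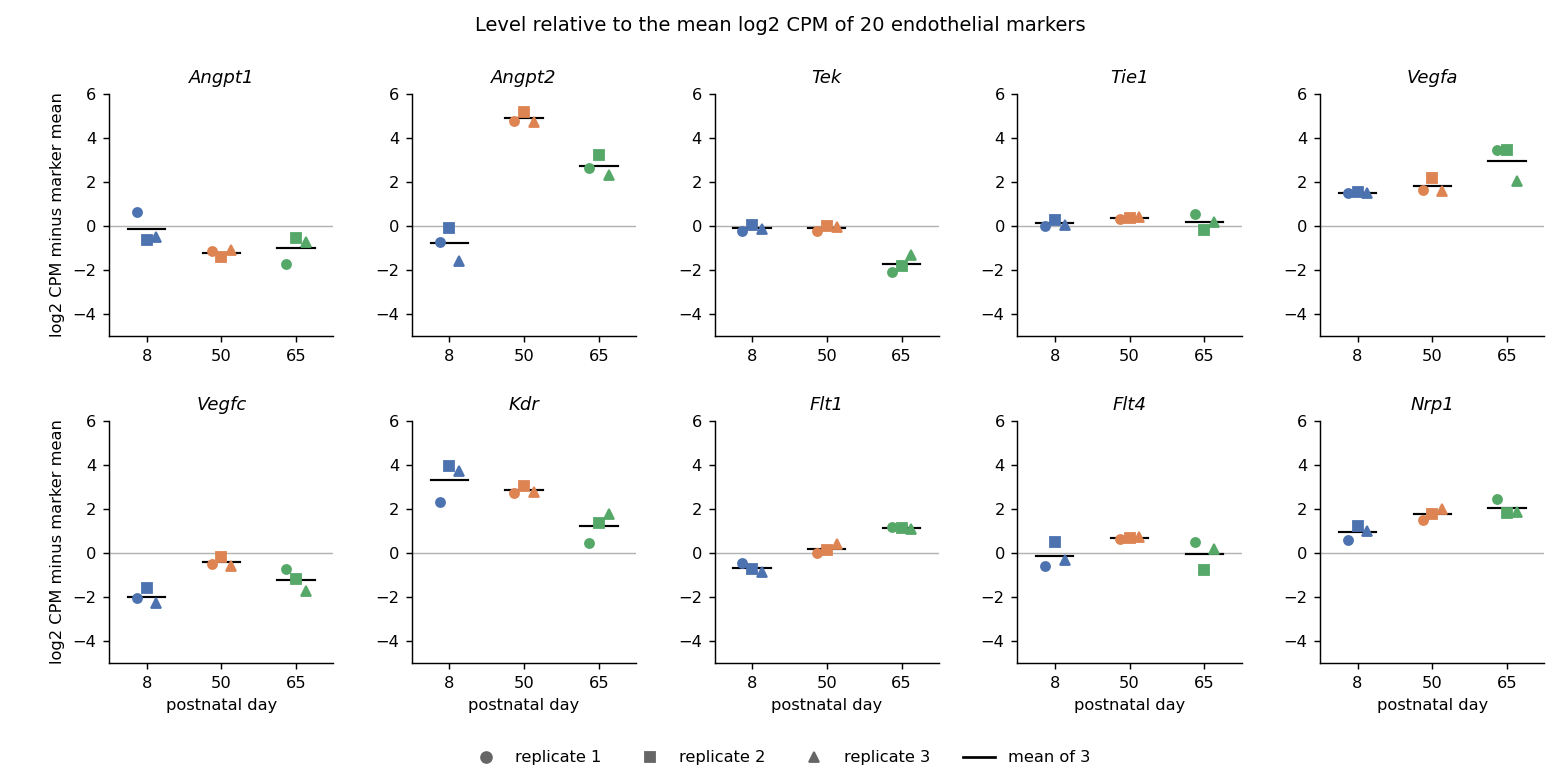
Log2 CPM of each gene minus the mean log2 CPM of 20 endothelial markers in the same library, at postnatal days 8, 50 and 65, with 1 point for each library and a line at the mean of 3. Tek lay between -0.24 and 0.03 at days 8 and 50 and between -2.09 and -1.32 at day 65, and Flt1 was higher at each later age.

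The markers did not move as a block. Counts of called list genes, here and below, stand beside the share of all tested genes called in either direction. That share was 40.8% at day 50 against day 8, 55.9% at day 65 against day 50 and 62.3% at day 65 against day 8. At day 65 against day 50, 4 of 20 rose and 4 fell (median log2 fold change -0.36, edgeR). Plvap, the protein of endothelial diaphragms, averaged 59.7 ± 15.3 CPM at day 65 and 22.8 ± 2.38 CPM at day 50 (1.39, adjusted p = 0.000207), whereas Ptprb, the phosphatase that removes the Tek signal, averaged 9.18 ± 1.42 CPM at day 65 and 24.5 ± 8.65 CPM at day 50 (-1.41, adjusted p = 0.00261). At day 50 against day 8, 6 rose and 1 fell (median 0.29), and at day 65 against day 8, 7 rose and 6 fell (median 0.39). Pecam1, an adhesion protein between endothelial cells, averaged 44.8 ± 7.66 CPM at day 50 and 24.0 ± 2.20 CPM at day 8 (0.90, adjusted p = 0.000861).

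Lymphatic markers fell in 4 of 8 cases and rose in 0 at day 65 against day 50, where Flt4 and Vegfc also fell. The median over the 8 markers was -0.86, with summed levels of 208 to 283 CPM at day 65 and 354 to 459.5 CPM at day 50, and 384 to 444 CPM at day 8. Pdpn alone held 199, 255 and 263 CPM of the sum at day 8, against 75.7, 75.7 and 58.7 CPM at day 50. The sums of these 2 ages therefore overlap although 4 of the 8 markers rose at day 50 against day 8. Prox1, the factor that sets lymphatic identity, had 9.37, 5.37 and 4.71 CPM at day 65, against 24.2, 15.9 and 22.4 CPM at day 50 (-1.69 by edgeR, adjusted p = 0.000771). Mmrn1, a secreted lymphatic protein, had 2.49, 0.720 and 2.59 CPM at day 65, against 30.6, 18.0 and 23.3 CPM at day 50 (-3.63, adjusted p = 7.38e-05). Neither gene overlapped between these ages. At day 50 against day 8, 4 markers rose and 2 fell (median 0.70), and at day 65 against day 8, where Vegfc rose and Flt4 missed the threshold, 0 rose and 4 fell (median -0.65). The part of lymphatic content in the Flt4 and Vegfc results was not tested.

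Markers of other cell types also moved with the ages. Summed granulosa markers were 1175 to 1848 CPM at day 8, 13535 to 15856 CPM at day 50 and 6946 to 8084 CPM at day 65, and theca and luteal markers 301 to 646, 3617 to 4188 and 1693 to 1938 CPM. Both lists were highest at day 50, the age at which Angpt2 was highest. Oocyte markers summed to 2599.8 to 2896 CPM at day 8, 88.7 to 126 CPM at day 50 and 45.7 to 93.2 CPM at day 65, with Bmp15, Figla and Sohlh1 at 0 in single later libraries. Gdf9 alone held 43.0 of the 48.8 CPM in replicate 1 of day 65.

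By edgeR, 9 of 11 granulosa markers and 8 of 10 theca and luteal markers rose at day 50 against day 8 (0 and 1 fell), and 6 of each fell at day 65 against day 50 (1 and 2 rose). Oocyte markers fell in 9 of 10 cases at day 50 and in all 10 at day 65, both against day 8. Between days 50 and 65, 4 of the 10 fell and 1, Gdf9, rose. At day 65 against day 50, 7 of 10 stromal markers rose (0 fell), 5 of 5 erythroid genes rose, 3 of 10 macrophage markers fell (0 rose) and 2 of 12 pericyte and smooth muscle markers rose (0 fell).

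At day 50 against day 8, 6 macrophage and 3 pericyte and smooth muscle markers rose, 8 stromal and 3 erythroid genes fell (5 erythroid genes without replicate 1 of day 8), and no gene of these 4 lists moved the other way. The counts at day 65 against day 8 were 7 up and 2 down for granulosa, 5 and 2 for theca and luteal, 3 and 4 for stroma, 4 and 0 for macrophage, 6 and 0 for pericyte and smooth muscle and 2 and 0 for erythroid genes (1 called without replicate 1 of day 8). Erythroid sums were 981 to 2199 CPM at day 8, 194 to 386 CPM at day 50 and 1826 to 4643 CPM at day 65, lowest at the age at which Angpt2 was highest. The part of these cell types in the results was not tested.

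Flt1 was the only member whose effective length changed by limma on its log2 value. It was 6515, 6666 and 6572 bases at day 8, 6575, 6628 and 6588 bases at day 50 and 6135, 6217 and 5643 bases at day 65. All day 65 values were below all earlier ones. The mean was 5998 ± 311 bases at day 65, against 6597 ± 27.6 bases at day 50 (a difference of -599 bases, limma adjusted p = 0.0326) and 6584 ± 76.3 bases at day 8 (-586 bases, adjusted p = 0.0330). The annotation holds coding Flt1 transcripts of 6895 and 6292 bases, noncoding ones of 2049 and 2030 bases and others of 395 and 274 bases, and the tables do not say which took the reads.

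That 1 of 10 members compares with 26.5% of the 12958 genes tested for effective length at day 65 against day 50 and 28.4% at day 65 against day 8. At day 50 against day 8 none of the 10 was called by limma, beside 0.494% of genes. The Flt1 calls lie close to the threshold. The call against day 50 was lost without replicate 3 of day 8 (adjusted p = 0.0535) or without replicate 1, 2 or 3 of day 50 (0.0798, 0.0900 and 0.0849). The call against day 8 was lost without replicate 1, 2 or 3 of day 8 (0.0619, 0.0909 and 0.0792) or any day 50 library (0.0556 to 0.0561).

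Among the other ligands and co-receptors of the families (Vegfb, Vegfd, Pgf, Nrp2 and Angpt4), 2 rose at day 50 against day 8, 3 at day 65 against day 50 and 4 at day 65 against day 8, and none fell (medians 0.01, 1.14 and 1.02, edgeR). Vegfb and Pgf both bind Flt1 and not Kdr. Vegfb had 99.8, 56.6 and 70.3 CPM at day 65, against 30.9, 33.9 and 33.3 CPM at day 50 (1.21, SE 0.190, adjusted p = 0.000516). Pgf had 2.57, 2.75 and 1.78 CPM at day 65, against 0.915, 0.557 and 0.612 CPM at day 50 (1.76, SE 0.401, adjusted p = 0.00406). Every day 65 library was above every day 50 library for both. The day 50 libraries held only 16, 10 and 12 Pgf counts. Without replicate 1 of day 8, 1 gene of this list rose at day 50 against day 8 in place of 2.

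Partners of the Tie receptors, among them Ptprb of the endothelial list, moved in both directions. At day 50 against day 8, 6 of 11 rose and 1 fell (median 0.95), at day 65 against day 50, 2 rose and 4 fell (median -0.38), and at day 65 against day 8, 7 rose and 1 fell (median 0.57). Grb14, an adaptor that binds Tek among other receptors, had 1508, 1899 and 1553 CPM at day 50, against 111, 69.96 and 41.3 CPM at day 8 (4.48 by edgeR, adjusted p = 8.21e-06). Foxo1, a transcription factor that PI3-kinase signalling holds out of the nucleus and that drives Angpt2 in endothelium, had 933, 995 and 1102 CPM at day 50, against 114, 89.7 and 61.4 CPM at day 8 (3.52, adjusted p = 5.16e-06). Both genes were higher in every day 50 library. Whole ovary RNA does not show which cells held these reads, and a link of either gene to the Angpt2 result was not tested. Svep1, a matrix protein that binds Tie1, averaged 9.18 ± 2.27 CPM at day 65 and 3.13 ± 1.76 CPM at day 50 (1.54, adjusted p = 0.00732).

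VEGF-C is made as a precursor that is cut outside the cell by a complex of Ccbe1 and Adamts3. Ccbe1 had 16.4, 17.6 and 22.1 CPM at day 65, against 94.3, 125 and 130.3 CPM at day 50 (-2.64 by edgeR, adjusted p = 3.28e-05), and 24.99, 45.4 and 36.1 CPM at day 8. Like Vegfc it was highest at day 50 in every library, but unlike Vegfc it lay below day 8 at day 65 (-0.92, adjusted p = 0.00458). Adamts3 averaged 0.381 ± 0.0474 CPM at day 65 and 2.32 ± 0.994 CPM at day 8 (-2.58, adjusted p = 0.00129). Its day 65 libraries held only 5, 5 and 7 counts. Pcsk5, also on the list of VEGF-C processing, rose, averaging 315 ± 72.5 CPM at day 65 and 29.4 ± 12.6 CPM at day 8 (3.42 by edgeR, adjusted p = 1.47e-05). Of the 6 genes of VEGF-C processing, 3 rose and 2 fell at day 50 against day 8, 2 rose and 2 fell at day 65 against day 50, and 2 rose and 3 fell at day 65 against day 8 (medians 0.76, -0.34 and -0.39).

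Of 19 adaptors and effectors of the VEGF receptors, 5 rose and 2 fell at day 50 against day 8 (median 0.13, edgeR). At day 65 against day 50, 2 rose and 8 fell (-0.52), and against day 8, 4 rose and 8 fell (-0.12). Over all tested genes 40.8%, 55.9% and 62.3% were called in these comparisons, in either direction. Dab2, an endocytic adaptor that takes Kdr and Flt4 into the cell, averaged 155 ± 10.4 CPM at day 65 and 313 ± 0.395 CPM at day 50 (-1.01, adjusted p = 0.000198). Efnb2, a membrane ephrin needed for the uptake of VEGF receptors, averaged 17.2 ± 6.26 CPM at day 65 and 67.1 ± 26.2 CPM at day 8 (-1.96, adjusted p = 0.000558). Ptprj, a phosphatase of Kdr, averaged 7.53 ± 1.27 CPM at day 65 and 107 ± 26.6 CPM at day 8 (-3.83, adjusted p = 1.46e-06).

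Among tip cell and sprouting genes, the endothelial genes of growing vessel ends, 3 of 12 rose and 0 fell at day 50 against day 8 (median 0.48). At day 65 against day 50, 5 rose and 3 fell (0.51), and against day 8, 7 rose and 2 fell (1.51). Of all tested genes 40.8%, 55.9% and 62.3% were called in these comparisons, in either direction. Esm1, a secreted proteoglycan, had 10.1, 16.6 and 4.43 CPM at day 65, against 0.172, 0.334 and 1.02 CPM at day 50. The fold was 19.8 by edgeR (adjusted p = 0.000427), or 39.4 without replicate 3 of day 50. The day 50 libraries held only 3, 6 and 20 Esm1 counts, so the size of the fold is uncertain. Apln, the ligand of the apelin receptor, had 10.9, 22.3 and 7.42 CPM at day 65, against 4.69, 3.29 and 5.20 CPM at day 50 (1.62, adjusted p = 0.00458). Both were higher in each day 65 library, while Nid2, a basement membrane protein on the same list, averaged 86.2 ± 24.5 CPM at day 65 and 343 ± 46.8 CPM at day 50 (-1.99, adjusted p = 0.000115).

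Secreted inhibitors of angiogenesis gave 3 rising and 2 falling genes of 9 at day 50 against day 8, 2 and 5 at day 65 against day 50, and 2 and 5 at day 65 against day 8 (medians -0.17, -0.90 and -0.94). Thbs1, thrombospondin 1, averaged 744 ± 62.3 CPM at day 65 and 1434 ± 85.3 CPM at day 50 (-0.95 by edgeR, adjusted p = 0.00185), and 195 ± 37.9 CPM at day 8 (day 50 against day 8: 2.88, adjusted p = 4.39e-06). Thbs2 averaged 25.4 ± 7.81 CPM at day 65 and 94.9 ± 11.5 CPM at day 50 (-1.90, adjusted p = 9.31e-05). Cxcl14, on the same list, went the other way. It averaged 432 ± 109 CPM at day 65 and 94.3 ± 33.4 CPM at day 50 (2.20 by edgeR, adjusted p = 0.00344), and 6.11 ± 5.19 CPM at day 8.

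Oxygen sensing and hypoxia response genes, among which VEGF-A is a classic target, rose in 8 and fell in 1 of 19 cases at day 50 against day 8, rose in 7 and fell in 4 at day 65 against day 50, and rose in 11 and fell in 2 at day 65 against day 8 (medians 0.44, 0.25 and 1.29, edgeR). Hif1a, the oxygen-regulated transcription factor, had 89.1, 161 and 124 CPM at day 65, against 796, 679 and 732 CPM at day 50 (-2.56, adjusted p = 3.13e-05). Egln3, an oxygen sensor, had 172, 88.2 and 47.8 CPM at day 65, against 10.01, 8.75 and 8.87 CPM at day 50 (11.1-fold, adjusted p = 0.000112; 7.37-fold without replicate 1 of day 65). Ldha, the lactate dehydrogenase of glycolysis, averaged 862 ± 176 CPM at day 65 and 481 ± 44.3 CPM at day 50 (0.84, adjusted p = 0.00476). Within day 65, replicate 3 was the lowest library for Vegfa, Egln3 and Ldha alike. This order did not hold for the whole list. Car9, another of its genes, had 4.81, 7.07 and 15.7 CPM in the day 65 libraries, with replicate 3 highest. It was among the genes that fell at day 65 against day 50 and against day 8.

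**Figure D5:**
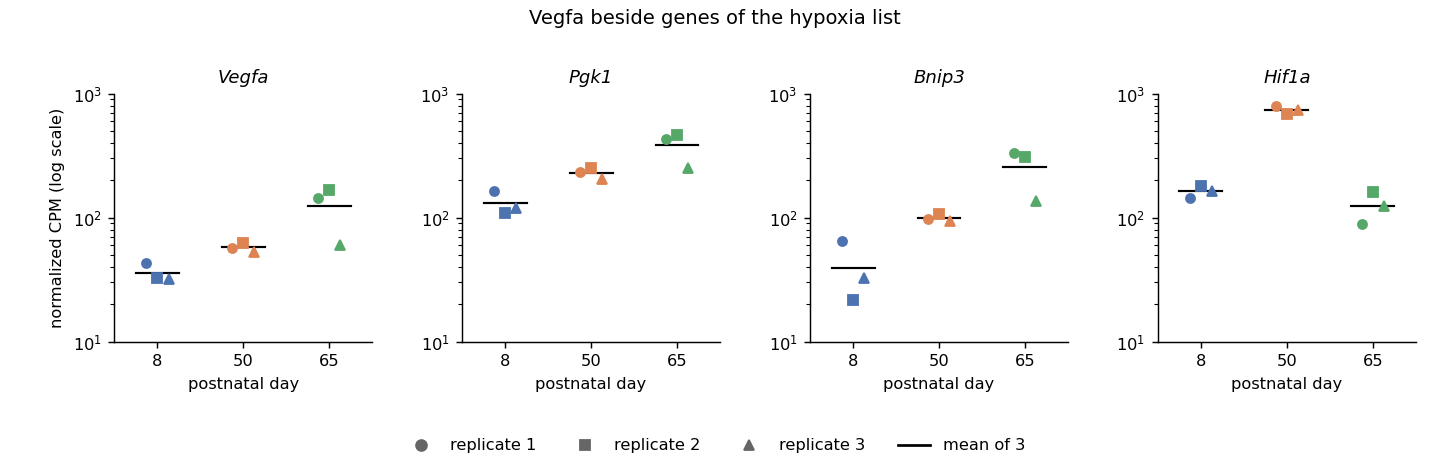
Normalized CPM on a log scale for Vegfa, Pgk1, Bnip3 and Hif1a at postnatal days 8, 50 and 65, with 1 point for each library and a line at the mean of 3. Pgk1 and Bnip3 are among the genes closest to Vegfa in profile over these same libraries. Their shared low in replicate 3 of day 65 is therefore not a separate result. Hif1a was highest at day 50.

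Genes with the most similar profiles were sought by Pearson correlation of log2 CPM over the 9 libraries, among genes averaging 10 CPM or more. The libraries share their scaling and the steps between ages, so each r is given beside the r left after age means were removed, as a description. Angpt2 was closest to Prss23 (0.996, and 0.934 without age means), Arhgap28 (0.995, 0.940) and Efhd1 (0.993, 0.783). Prss23 had 28.8, 23.5 and 12.3 CPM at day 8, 864, 883 and 765 CPM at day 50 and 189, 345 and 215 CPM at day 65. As with Angpt2, replicate 3 was lowest at day 8 and replicate 2 highest at day 65.

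Kdr was closest to Efnb2 (0.995, and 0.983 without age means), then Foxo6 (0.991, 0.957) and Ppp6r1 (0.990, 0.960). Efnb2 had 39.5, 91.6 and 70.3 CPM at day 8, 62.3, 57.1 and 54.1 CPM at day 50 and 10.3, 19.0 and 22.4 CPM at day 65, so replicate 1 was lowest at days 8 and 65 for both. Vegfa was closest to Pgk1 (0.976, 0.951), a glycolytic enzyme, Tspan3 (0.968, 0.878) and Bnip3 (0.951, 0.823), a mitochondrial protein, and Pgk1 and Bnip3 are also on the hypoxia list. Pgk1 had 431, 467 and 251 CPM at day 65, against 235, 250.2 and 206 CPM at day 50.

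Flt1 was closest to Cacna2d1 (0.993, and 0.937 without age means), Abca8a (0.990, 0.938) and Cxcl14 (0.987, 0.845), and Tek to Smpx (0.983, 0.825), Gon4l (0.983, 0.900) and Sspn (0.982, 0.836). Tie1 was closest to Osbpl7 (0.949, 0.868), Daam2 and Efr3a, and Nrp1 to Uggt1 (0.985, 0.841), Tgfb1 and Nexmif. Vegfc was closest to Heph (0.972, 0.734), and Flt4 to Atp2a2 (0.950, 0.841), Fasn and Abitram. For Angpt1 the closest were Slc25a17 (0.939, 0.982), Arl5a and Zfp991, and replicate 1 of day 8 was the highest of the 3 day 8 libraries for both Angpt1 and Slc25a17. Among the 10 genes themselves, the closest pairs were Angpt2 with Vegfc (0.962, 0.693), Tie1 with Flt4 (0.896, 0.732) and Tek with Kdr (0.889, 0.479), and Vegfa ran opposite to Kdr (-0.855, -0.620).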

How the data were processed

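RNA of 9 whole mouse ovary libraries was extracted with a column kit and made into libraries with the NuGEN Universal Plus mRNA-Seq kit, per the labels' protocols. The deposited gene tables hold, per the file headers, RSEM expected counts, TPM and FPKM, with a length and an effective length in bases, 1 table for each library. TPM and FPKM were computed by the authors from the expected counts and effective lengths, per the file headers, and FPKM was not used here. The genome was GRCm38 (mm10), per the submitters' processing notes. Which aligner, which versions and which strand setting were used is not stated in the labels or headers. The gene coordinates in the tables equalled those of GENCODE M21 for 9 of the 10 genes; that of Angpt1 is given from GENCODE M21.

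For testing, expected counts were rounded to integers and fitted with edgeR 4.0.16 in R 4.3.3 (TMM scaling, its default filter on low counts, quasi-likelihood test, all 9 libraries in 1 fit), with Benjamini-Hochberg adjustment over 17747 genes and a threshold of 0.05. The fit was tested on simulated data first. Effective lengths were tested on the log2 scale with limma 3.58.1 over 12958 genes averaging 1 CPM or more. TPM was used as deposited for levels and ratios, and with limma on log2(TPM + 0.1) as an alternative. Ratios and marker-relative levels were compared by two-sided exact permutation tests, and the promoter sequences come from RefSeq. Alternatives, 19 for each comparison, included DESeq2 1.42.0, other scalings, no filter, a replicate block, length and GC corrections and leaving out each library.

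The 10 genes, the 16 gene lists and the tests were chosen with earlier results of these data known. From each list the text may name up to 4 called genes with the smallest p for each comparison, including the strongest in the other direction; Foxl2, Gdf9 and Cdh5 are named as markers, and Pgk1 and Bnip3 also for their likeness to Vegfa.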

Additional observations from a re-analysis of the deposited data

How the results depend on the processing

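Of the called members, 5 of 6, 4 of 7 and 5 of 7 (day 50 against day 8, day 65 against day 50, day 65 against day 8) kept their call and direction under all 19 alternatives, and over called and uncalled members a call was lost in 20 and gained in 12 alternative values, 1 of them with a changed sign (Nrp1 on TPM). No called member turned its direction, and the cause was not tested for any of the values that follow. Members called at day 65 against day 50 numbered 4 to 7 over the fits that leave out a library, with 4 without replicate 2 of day 65, and 6 at day 50 against day 8 without replicate 1 of day 8, the library that stood apart. Without that library the number of called list genes moved by over 1.5 times only for the other family members at day 50 against day 8 (1) and the erythroid genes at day 50 (5) and day 65 (1) against day 8; this alternative was chosen after seeing the data.

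Same-numbered libraries correlated by -0.0432 to 0.052 in their deviations from the age means. The labels do not say whether the numbers pair libraries, and such correlations cannot settle it. With the replicate block 6, 7 and 7 members were called, and the Flt1 effective length calls against day 50 (adjusted p = 0.0515) and day 8 (0.0509) were lost, which left 0 members; leaving out a library left 0 to 1.

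Scaling by library size alone moved the median log2 fold change of all genes to -0.31 (day 65 against day 50) and -0.34 (day 65 against day 8), TPM to 0.13, -0.79 and -0.66 in the 3 comparisons, and removing the length and GC trend to 0.10, 0.12 and 0.25. Of all calls 47.7%, 49.2% and 47.6% were higher, beside 43.4%, 35.5% and 34.8% by library size, 53.4%, 16.3% and 23.2% by TPM and 57.1%, 60.0% and 62.1% with the trend removed. Relative to its median, Vegfa at day 65 against day 50 was 0.79 higher on TPM.

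Some uncalled differences changed sign. Kdr at day 50 against day 8 gave 0.0099 (replicate block with the trend removed), 0.078 (TPM) and -0.44 to 0.092 over fits without single libraries. At day 65 against day 50, Angpt1 gave -0.12 by library size, -0.76 by TPM and -0.16 to 0.42 without single libraries, and Nrp1 gave -0.19 by library size, -0.73 by TPM (adjusted p = 0.0436) and -0.081 to 0.27 without single libraries. At day 65 against day 8, Tie1 gave -0.0095 by library size and -0.38 by TPM, Flt4 -0.34 by TPM, and Angpt1 0.21 with the trend removed, 0.36 with the block added and -1.02 to 0.012 without single libraries. With Pecam1 and Cdh5 as the only markers, levels relative to them turned at day 50 against day 8 for Tek (-0.48), Tie1 (-0.23) and Vegfa (-0.18), at day 65 against day 50 for Angpt1 (-0.011) and at day 65 against day 8 for Tie1 (-0.63) and Flt4 (-0.61). The ratios at day 65 against day 50 ranged over fits without single libraries from -0.40 to 0.43 for Vegfa to Flt1 and from -0.34 to 0.16 for Vegfc to Flt4. All 8 ratios were without overlap at day 50 against day 8 once replicate 1 of day 8 was left out. Counts as low as 37 for Tek limit the precision of the lowest values.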
